A study of Mus musculus with 9 samples.

Results

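The transcripts that encode the nuclear subunits of the oxidative phosphorylation system were followed in CD4+ T cells of the mouse spleen. Members were taken by gene name: Nduf followed by a, b, c, s or v and a number, Sdha to Sdhd, Cyc1, and every name that begins with Uqcr, Cox4 to Cox8 or Atp5, with names that hold -ps left out. The rule gave 90 of the 55487 genes listed, of which 40 were counted in complex I, 4 in complex II, 9 in complex III, 19 in complex IV and 18 in complex V. The annotation calls 86 of them protein coding and 4 (Ndufs6b, Cox6c2, Ndufb4c and Ndufa11b) processed pseudogenes, and Atp5o stands under 2 identifiers. The grouping follows the names, so that Ndufa4, which structural work places in complex IV, was counted with complex I.

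RNA-seq was available for 9 libraries of wild type C57BL/6 CD4+ T cells, isolated by negative selection from spleens of mice that the study's methods describe as female and 6 to 7 weeks old. In 3 libraries the cells were kept in medium. In 3 others they received anti-CD3 Abs at 3 µg/ml plus 2 µg/ml of anti-CD28 Abs for 24 h, and the last 3 received the same Abs together with TRAIL at 10 µg/ml for 24 h. The comparisons ask how the members responded to stimulation through the TCR and whether TRAIL, a TNF superfamily cytokine that engages TRAIL-R, altered that response. All groups carry the wild type Trail-r gene, and the culture time of the medium group is not given in the sources used here. Nothing states that the 3 libraries of a group came from separate mice or cultures, so p-values measure only the spread between these libraries, which may be technical.

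Oxidative phosphorylation takes place at the inner mitochondrial membrane. Complex I accepts electrons from NADH and complex II from succinate, complex III passes them to cytochrome c, complex IV hands them to oxygen, and complex V uses the proton gradient built by complexes I, III and IV to make ATP. Most subunits are encoded in the nucleus and are assembled with a small set of subunits encoded in mitochondrial DNA. Resting T cells depend largely on this system, and T cells that enter growth after activation enlarge their mitochondria while they also turn to glycolysis.

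Levels are given as TPM, a transcript abundance corrected for gene length and set to a common total in every library. How deeply each library was sequenced cannot be read from TPM and is unknown here. All 8 T cell markers examined, Cd3e and Cd4 among them, reached 1 TPM in every library, with a summed level of 2887 to 3174 TPM in medium, 2389 to 2556 TPM after stimulation and 2849 to 3131 TPM with TRAIL. Markers of other cells moved with the groups: the summed level of 8 B cell genes was 5802 to 6414 TPM in medium, 686 to 746 TPM in stimulated and 2955 to 3416 TPM in TRAIL-treated libraries. The 10 myeloid genes summed to 1753 to 1846, 185 to 219 and 1317 to 1487 TPM in the same order, the 7 erythroid genes to 2137 to 2585, 24.8 to 39.6 and 619 to 669 TPM, the 4 NK cell genes to 96 to 126, 9.19 to 12.2 and 29 to 31.2 TPM, and the 2 CD8 genes to 110 to 118, 94.2 to 105 and 46.9 to 49.4 TPM. Of the erythroid markers, Slc4a1 was listed at 0.0001 TPM in every stimulated library. The 4 activation markers (Il2ra, Cd69, Tnfrsf4 and Tnfrsf9) summed to 510 to 615 TPM in medium, 2479 to 2775 TPM after stimulation and 753 to 1008 TPM with TRAIL. Of these, Il2ra, Tnfrsf4 and Tnfrsf9 rose with stimulation and fell with TRAIL, whereas Cd69 did not pass with stimulation (log2 fold change -0.23, limma adjusted p = 0.16) and rose with TRAIL (0.93, limma adjusted p = 1.5e-04). The part of these cells in the results for the respiratory chain was not tested, and in bulk RNA fewer cells of a type and less RNA per cell cannot be told apart.

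The promoters of the 3 genes for the c subunit of complex V, which rose by unequal amounts, and of Cox7a2l, the member that moved against the others, are shown first. They are RefSeq sequences of build GRCm38.p6, taken from the 250 bases before the RefSeq start, all on the minus strand and written 5′ to 3′, and cut where an exon of GENCODE M21 begins. Capitals mark a match, on either strand, to the E box CACGTG, which Myc and related factors bind, or to GCGCANGCG, a core of sites for NRF1. For Atp5g2 only the 30 bases around its pair of overlapping NRF1 core matches are shown, which lie past the point where such an exon begins.
Atp5g1, chr11:96075670-96075881: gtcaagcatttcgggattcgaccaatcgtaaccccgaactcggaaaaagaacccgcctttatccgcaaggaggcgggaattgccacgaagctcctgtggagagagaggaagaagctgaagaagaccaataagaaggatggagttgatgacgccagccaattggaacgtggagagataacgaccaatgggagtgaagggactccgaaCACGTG
Atp5g2, chr15:102671070-102671099: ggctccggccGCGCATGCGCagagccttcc
Atp5g3, chr2:73911327-73911576: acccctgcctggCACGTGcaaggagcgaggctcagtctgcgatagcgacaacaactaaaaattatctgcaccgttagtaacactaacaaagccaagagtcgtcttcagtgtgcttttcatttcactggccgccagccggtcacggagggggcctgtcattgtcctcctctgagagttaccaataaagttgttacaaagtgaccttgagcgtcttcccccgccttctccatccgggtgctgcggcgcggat
Cox7a2l, chr17:83514334-83514583: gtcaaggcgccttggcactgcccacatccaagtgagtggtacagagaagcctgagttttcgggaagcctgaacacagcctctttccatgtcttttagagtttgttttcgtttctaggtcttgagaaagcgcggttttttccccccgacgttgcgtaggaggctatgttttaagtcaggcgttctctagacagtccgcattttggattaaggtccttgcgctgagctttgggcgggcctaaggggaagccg
The E box of Atp5g1 ended 38 bases before the RefSeq start and that of Atp5g3 232 bases before its own, whereas the window of Cox7a2l held no match to any motif searched. The RefSeq start of Cox7a2l used here lies within the locus of the gene in the deposited table, so the sequence before that locus was not searched. In the deposited table the locus of Atp5g1 begins at the last base of its E box. A RefSeq window was found for 68 of the 89 member symbols, in 73 windows. The E box was present in 7 of these 73 windows (9.59%) and in 6.02% of all 32851 windows. The NRF1 core was present in 15 windows of 14 members (20.5%) and in 5.16% of all windows. Matches to CCGGAAGT, a core of ETS family sites, were found in 3 member windows (4.11%, against 2.88% of all windows), and matches to AAGATGGCG, a core of YY1 sites, in 1 (1.37%, against 0.606%). Among tested members, the 6 with an E box had a median log2 fold change with stimulation of 0.62, between 0.38 and 4.24, and the 59 with a window and no E box had a median of 0.84. The 14 with an NRF1 core and the 51 without one both had a median of 0.82.

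Stimulation for 24 h raised most subunits of all 5 complexes. Summed over the 90 members, the level was 8261, 6873 and 8359 TPM in the medium libraries, 14714, 12113 and 12286 TPM in the stimulated libraries, and 7458, 7882 and 8274 TPM in the libraries with TRAIL. The stimulated libraries were the highest, without overlap, and the ranges of the other groups overlapped. As a share of all transcripts the members took 0.783% ± 0.0831 in medium cells, 1.3% ± 0.145 in stimulated cells and 0.787% ± 0.0408 in cells with TRAIL (mean ± SD, n = 3 each). Each of these separations gave a two-sided exact permutation p = 0.1, the smallest that 3 libraries against 3 allow, and medium against TRAIL gave p = 0.9.

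Single genes were tested with limma on log2(TPM + 1), and every log2 fold change below is on that scale. A total of 82 members reached 1 TPM in at least 3 libraries and were tested among 15536 genes, and no tested member reached 1 TPM in 1 group alone. With stimulation, 61 of the 82 members (74.4%) passed a Benjamini-Hochberg adjusted p of 0.05 as higher, where 28.8% of all genes did, and 1 (Cox7a2l) passed as lower, where 40% of all genes did. At least 2-fold changes were found for 30 members upward (36.6%, against 12.4% of all genes) and for 1 downward, where 19.5% of all genes fell that far. The median log2 fold change was 0.79 over the members and -0.15 over all genes tested. Among the 82 tested members, stimulated replicate 1 was the highest of its group in 73 and medium replicate 2 the lowest of its group in 61. The same count was not made over all genes, so it is unknown whether this is particular to the members. Without stimulated replicate 1, 58 members passed as higher and the median was 0.68, and without medium replicate 2, 57 passed and the median was 0.73.

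With TRAIL, most subunits were lower than after stimulation alone. Against stimulated libraries, 66 of the 82 members (80.5%) passed as lower, where 33.5% of all genes did, and 1 member, again Cox7a2l, passed as higher, where the share of all genes was also 33.5%. A fall of at least 2-fold was found for 31 members (37.8%, against 14.3% of all genes) and a rise of that size for 1, where 16.6% of all genes rose that far. The median log2 fold change was -0.88 over the members and 0.01 over all genes. Without stimulated replicate 1, 63 members passed as lower, 23 of them by at least 2-fold, and the median was -0.76. The stimulated libraries enter both comparisons, so a high stimulated library raises the first and lowers the second, and the 2 sets of values are not independent.

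**Figure D1:**
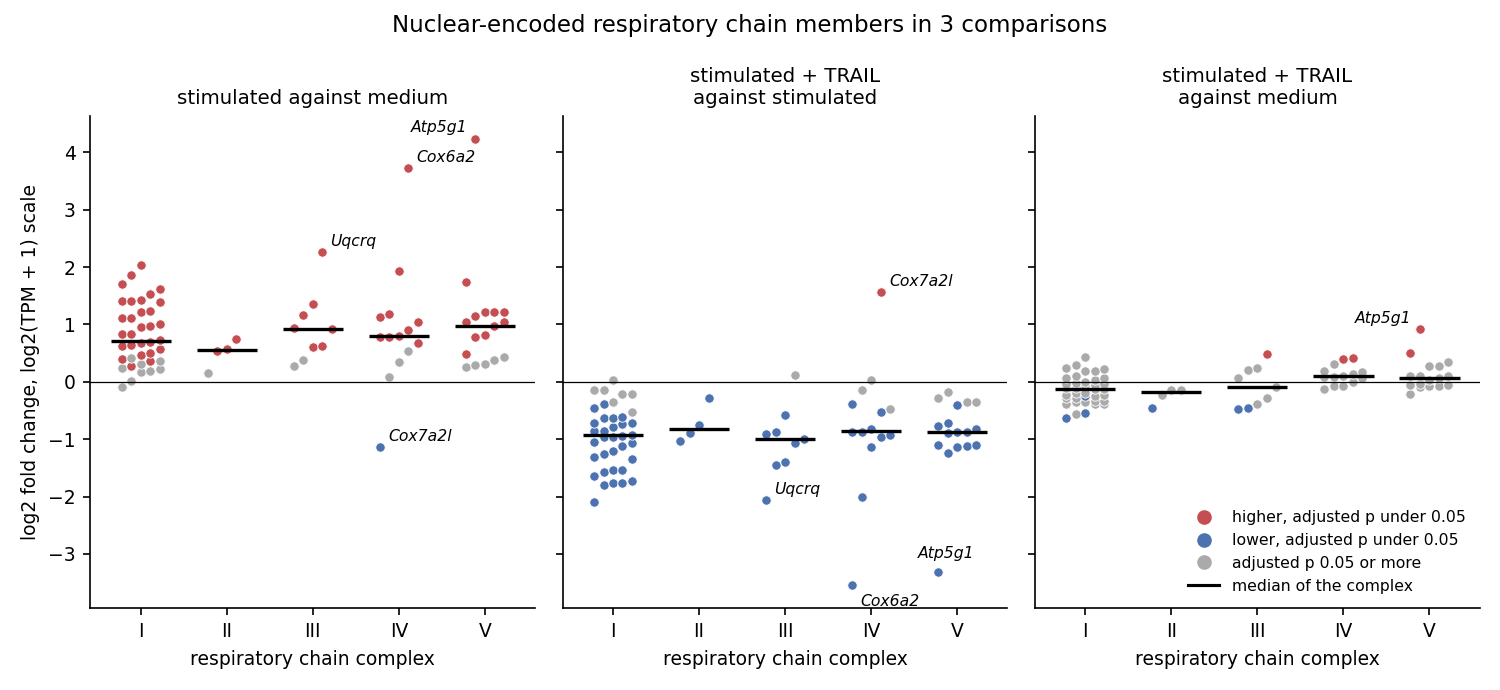
Log2 fold change on the log2(TPM + 1) scale of each of the 82 tested members (points), by respiratory chain complex, in 3 comparisons. Red and blue points passed an adjusted p of 0.05 as higher or lower, grey points did not, and bars are medians of a complex. The medians of all complexes lie above 0 with stimulation and below 0 with TRAIL against stimulation, where Cox7a2l stands on the other side, and near 0 for TRAIL against medium.

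Complex I, the entry point for electrons from NADH, had 38 tested members. Of these, 29 rose with stimulation, none passed as lower, and 31 fell with TRAIL, with medians of 0.71 and -0.93. With stimulation 76.3% of complex I rose, where 28.8% of all genes rose and 40% fell. With TRAIL 81.6% fell, where 33.5% of all genes did. The summed level was 2202, 1763 and 2294 TPM in medium, 4011, 3061 and 3202 TPM after stimulation and 1798, 1849 and 2017 TPM with TRAIL. On the log2(TPM + 1) scale, the largest rise was that of Ndufb6, an accessory subunit of the membrane arm. It was at 13.9, 13.9 and 14.6 TPM in medium, 78.6, 50.1 and 56.8 TPM after stimulation and 14.6, 17 and 22.4 TPM with TRAIL. All stimulated libraries lay above all others. Its log2 fold change was 2.03 (SE 0.18, limma adjusted p = 4.1e-06) with stimulation and -1.72 (SE 0.18, limma adjusted p = 1.4e-05) with TRAIL. Its opposite-strand neighbour Smim27, which overlaps it, was at 1.21 to 4.27 TPM.

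The largest fall in complex I was that of Ndufa12, an accessory subunit of the arm that oxidises NADH. It was measured at 22, 30.9 and 27.2 TPM in medium, 133, 62.2 and 84.1 TPM after stimulation and 27.6, 15.9 and 18.5 TPM with TRAIL. The stimulated libraries were again the highest without overlap, although they differed from each other by more than the other groups did. The log2 fold changes were 1.71 (SE 0.27, limma adjusted p = 2.8e-04) and -2.09 (SE 0.27, limma adjusted p = 6.7e-05). Ndufa12 shares sequence with a processed pseudogene, Ndufa12-ps, which took 58% ± 7.88 (SD, n = 3) of the summed level of the pair in stimulated libraries and 60.3% ± 10.5 (SD, n = 3) in medium, so the division of reads between them is uncertain. The pair together stood at 69.3 ± 15.7 TPM in medium, 217 ± 43.4 TPM after stimulation and 48.6 ± 6.26 TPM with TRAIL (SD, n = 3).

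The 7 nuclear-encoded subunits of the catalytic core carry the flavin and the iron-sulfur clusters or surround the ubiquinone site. Of these, 3 (Ndufv1, Ndufv2 and Ndufs3) rose with stimulation and 5 (Ndufv1, Ndufv2, Ndufs3, Ndufs7 and Ndufs8) fell with TRAIL, with medians of 0.37 and -0.63. These are 42.9% and 71.4% of the core, beside 28.8% of all genes that rose with stimulation and 33.5% that fell with TRAIL. Of the 31 other tested members, 26 rose and 26 fell (83.9% each), with medians of 0.95 and -1.05. By the name rule these others include Ndufa4, which structural work places in complex IV, and the processed pseudogenes Ndufs6b and Ndufb4c. The rise of Ndufv2 (log2 fold change 0.47, limma adjusted p = 0.03) was lost without medium replicate 2 (0.30, limma adjusted p = 0.108) and without stimulated replicate 1 (0.31, limma adjusted p = 0.0924).

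Ndufs1, the largest core subunit and a carrier of iron-sulfur clusters, was measured at 100, 74 and 83.6 TPM in medium, 84.9, 86.8 and 87.9 TPM after stimulation and 78.5, 73.5 and 70.2 TPM with TRAIL. Its log2 fold change with stimulation was 0.02 (95% confidence interval -0.23 to 0.27, limma adjusted p = 0.877). This interval lay within a 2-fold change. With TRAIL against stimulation the log2 fold change of Ndufs1 was -0.22 (95% confidence interval -0.47 to 0.03, limma adjusted p = 0.104), which did not pass. It passed in 1 alternative, when only the 6 libraries compared were fitted (-0.22, limma adjusted p = 0.0495). The first bases of Ndufs1 overlap those of Eef1b2 on the opposite strand, which was at 507 to 937 TPM over the 9 libraries and itself rose with stimulation (0.64) and fell with TRAIL (-0.28), and the part of this overlap in the values was not tested. Without strand, reads of overlapping genes on opposite strands cannot be told apart. Ndufv1, which binds NADH, rose from 60.4 ± 5.54 to 89.9 ± 5.67 TPM (SD, n = 3; log2 fold change 0.57, limma adjusted p = 0.00103).

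Transcripts of the core were longer than those of the other members, with a median of 1661 against 908 bases. After a correction for transcript length and GC content, which was added after the data had been seen, the medians with stimulation were 0.38 for the core and 1.01 for the others, and with TRAIL -0.57 and -1.09. The difference between the core and the other members was not tested, since the members were chosen with results of these data known.

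**Figure D2:**
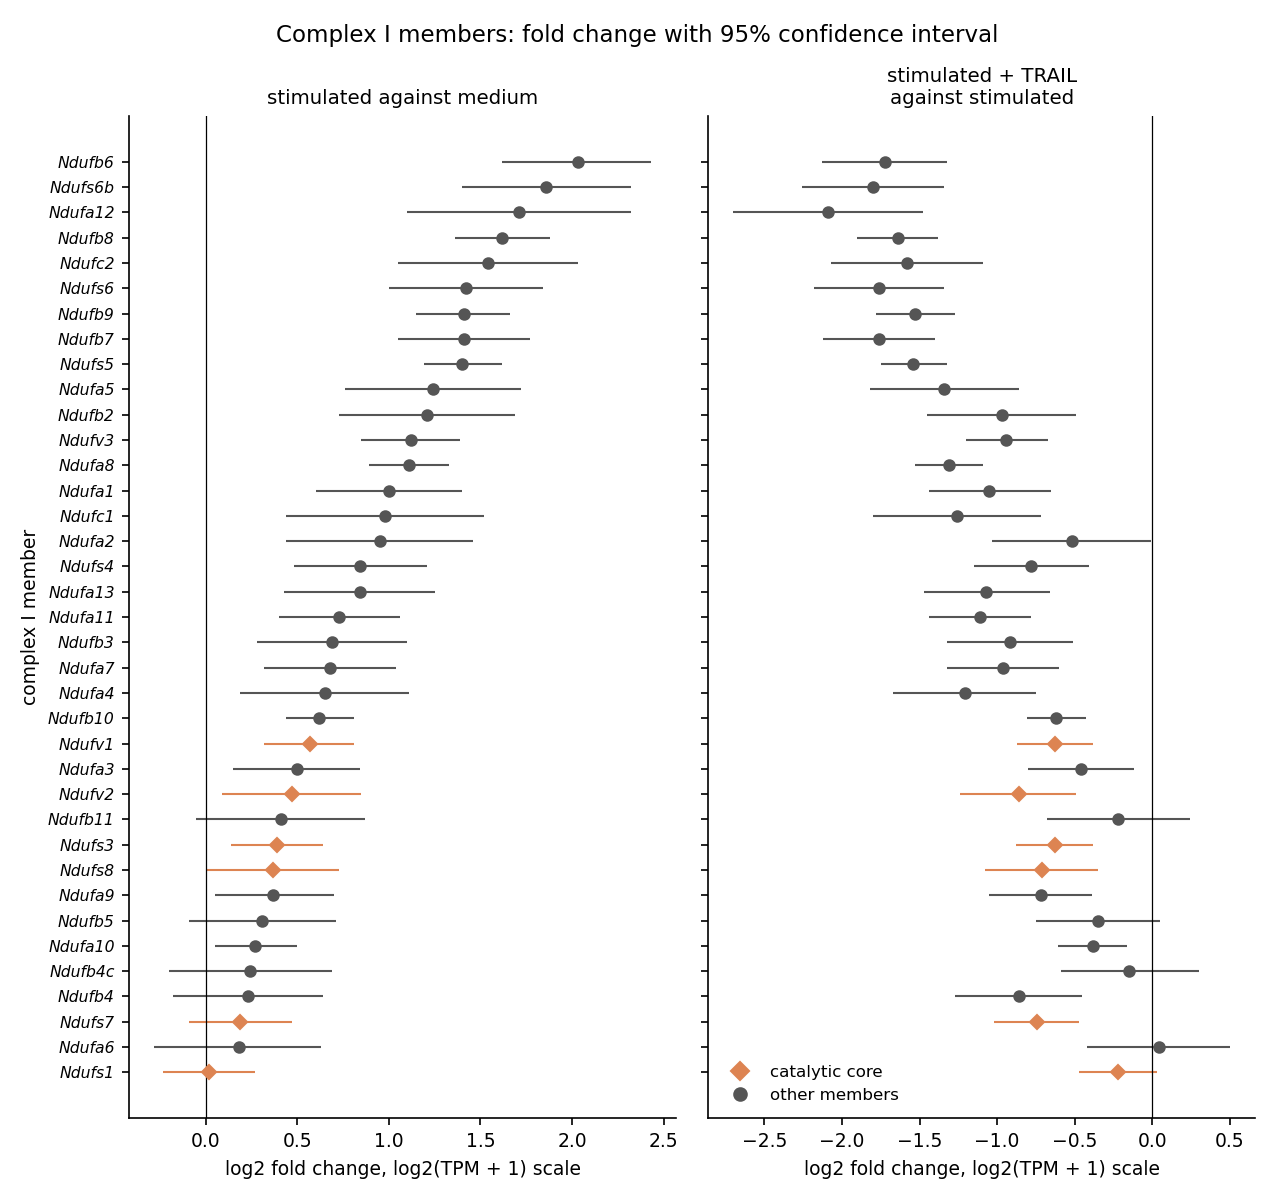
Log2 fold change on the log2(TPM + 1) scale with 95% confidence interval (bars) of 37 of the 38 tested complex I members, in order of their change with stimulation, for stimulated against medium (left) and stimulated with TRAIL against stimulated (right). Orange diamonds are 6 catalytic core subunits, which lie between 0.02 and 0.57 on the left, and grey circles are the others, which reach 2.03. The others include Ndufa4 and the processed pseudogenes Ndufs6b and Ndufb4c.

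By position, the 10 tested members of the membrane arm nearest the peripheral arm all rose with stimulation and all fell with TRAIL, with medians of 0.91 and -1.09. In the distal membrane arm 7 of 10 rose and 8 fell (0.95 and -0.94). In the NADH-oxidising module 8 of 10 rose and 7 fell (0.76 and -0.82), and in the module that reduces ubiquinone 2 of 5 rose and 4 fell (0.37 and -0.71). The share that rose was 40% in this last module, not far from the 28.8% of all genes. Of all genes, 33.5% fell with TRAIL. Differences between the modules were not tested. Ndufa6, a small accessory subunit and one of the most abundant members of complex I, was at 170, 190 and 195 TPM on average in medium, stimulated and TRAIL-treated libraries and passed no comparison. The processed pseudogene Ndufs6b rose from 1.76 ± 0.154 to 9.26 ± 2.82 TPM and fell to 1.9 ± 0.54 TPM (SD, n = 3), beside its parent gene Ndufs6, for which the log2 fold changes were 1.42 and -1.76, and the division of reads between the 2 genes is uncertain.

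Complex II, succinate dehydrogenase, also works in the tricarboxylic acid cycle and has no subunit encoded in mitochondrial DNA. Of its 4 subunits, Sdhb, Sdhc and Sdhd rose with stimulation and all 4 fell with TRAIL, with medians of 0.55 and -0.82. Of all genes, 28.8% rose with stimulation and 33.5% fell with TRAIL. Sdha, the flavoprotein that oxidises succinate, stood at 170, 190 and 166 TPM in medium, 165, 207 and 212 TPM after stimulation and 169, 160 and 148 TPM with TRAIL. Its libraries overlapped in every pair of groups. With stimulation Sdha did not pass (log2 fold change 0.15, limma adjusted p = 0.274). It passed as higher in 3 alternatives, namely median-of-ratios scaling (0.31, limma adjusted p = 0.00573), the length and GC correction (0.31, limma adjusted p = 0.0035) and without stimulated replicate 1 (0.26, limma adjusted p = 0.0323). The fall of Sdha with TRAIL was small, with a log2 fold change of -0.29 (limma adjusted p = 0.0477), and was lost in 13 of 20 alternatives, among them the removal of medium replicate 1 (-0.29) or 3 (-0.29), stimulated replicate 2 (-0.24) or 3 (-0.22), or TRAIL replicate 1 (-0.33), 2 (-0.29) or 3 (-0.24). Quantile normalization gave -0.07 (limma adjusted p = 0.557).
Sdhc, a membrane anchor that binds heme, was at 19.5, 21 and 18 TPM, then 35, 26.8 and 26.9 TPM, and 15.5, 14.2 and 12.1 TPM. It had the largest fall of complex II, with a log2 fold change of -1.03 (SE 0.14, limma adjusted p = 7.3e-05).

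In complex III, which passes electrons from ubiquinol to cytochrome c, 7 of 9 members rose with stimulation and 8 fell with TRAIL (medians 0.93 and -1.0). The shares were 77.8% and 88.9%, beside 28.8% of all genes that rose with stimulation and 33.5% that fell with TRAIL. Uqcrq, a small membrane subunit, was measured at 36, 31.1 and 32.3 TPM in medium, 192, 152 and 147 TPM after stimulation and 35.6, 40.6 and 38.7 TPM with TRAIL. Stimulated libraries were at least 147 TPM and all others at most 40.6 TPM. The log2 fold changes were 2.26 (SE 0.12, limma adjusted p = 7.5e-08) with stimulation and -2.06 (SE 0.12, limma adjusted p = 1.7e-07) with TRAIL.

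Cyc1, the cytochrome c1 that carries electrons out of the complex, was at 63, 72.6 and 63.3 TPM in medium, 125, 131 and 125 TPM after stimulation and 51.9, 49 and 42.4 TPM with TRAIL. The 3 groups did not overlap, and the TRAIL-treated libraries were below those in medium. Uqcrfs1, the Rieske iron-sulfur protein, rose from 74.4 ± 9.12 to 168 ± 24.6 TPM and fell to 88.6 ± 5.5 TPM (SD, n = 3). Of the pair of large core proteins, Uqcrc1 rose (log2 fold change 0.60, limma adjusted p = 0.00111), whereas Uqcrc2 had a log2 fold change of 0.28 (95% confidence interval up to 0.56, limma adjusted p = 0.0706), and both fell with TRAIL (-1.06 and -0.57). Uqcrc2 passed as higher with stimulation in 3 alternatives, namely median-of-ratios scaling (0.44, limma adjusted p = 0.0231), the length and GC correction (0.29) and without medium replicate 1 (0.40, limma adjusted p = 0.013).

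Uqcrh, the hinge protein that contacts cytochrome c1 and the most abundant member of complex III, did not pass with stimulation, or with TRAIL against stimulation. Its level was 258, 197 and 274 TPM in medium, 371, 290 and 284 TPM after stimulation and 290, 340 and 395 TPM with TRAIL. The stimulated libraries lay above medium without overlap, with a log2 fold change of 0.38 (limma adjusted p = 0.0619) that passed under median-of-ratios scaling (0.54), under the length and GC correction (0.48) and without medium replicate 3 (0.47, limma adjusted p = 0.0461). The stimulated and TRAIL-treated libraries overlapped, and the log2 fold change between them was 0.12 (95% confidence interval -0.25 to 0.48, limma adjusted p = 0.546). A processed pseudogene on the opposite strand within Uqcrh, Gm12854, was at 2.56 to 12.4 TPM.

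Complex IV, cytochrome c oxidase, had 14 tested members, of which 10 rose and 1 fell with stimulation, and 10 fell and 1 rose with TRAIL. With stimulation 71.4% rose and 7.14% fell, against 28.8% and 40% of all genes. With TRAIL 71.4% fell and 7.14% rose, against 33.5% of all genes each way. Several subunits of complex IV exist as isoforms used in different tissues. Among 10 subunits of the forms found in most tissues 8 rose and 8 fell (80% each, medians 0.86 and -0.85). Cox4i1, the most abundant of them, was at 260, 276 and 262 TPM in medium, 484, 448 and 438 TPM after stimulation and 340, 372 and 343 TPM with TRAIL. Its TRAIL-treated libraries lay between the other groups without overlap. Cox5a, which with Cox4i1 belongs to the earliest assembly stage, changed most among these forms, with 47.1, 47.2 and 44.2 TPM in medium, 222, 165 and 157 TPM after stimulation and 44.4, 41.6 and 46 TPM with TRAIL. Its log2 fold changes were 1.93 (SE 0.13, limma adjusted p = 4.1e-07) and -2.0 (SE 0.13, limma adjusted p = 3.4e-07).

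Cox6a2, the isoform of subunit 6a known from heart and skeletal muscle, showed the largest change of complex IV. The gene (ENSMUSG00000030785, GRCm38 chr7:128205435-128206387, minus strand) was measured at 2.75, 1.42 and 1.98 TPM in medium, 44.8, 33.9 and 38.4 TPM after stimulation and 2.17, 2.52 and 2.52 TPM with TRAIL. The mean was 19.1 times higher after stimulation than in medium and 16.3 times higher than with TRAIL, and no stimulated library overlapped with another group. The log2 fold changes were 3.73 (SE 0.17, limma adjusted p = 2.7e-08) and -3.55 (SE 0.17, limma adjusted p = 4.5e-08).
Its ubiquitous counterpart Cox6a1 was at 152, 169 and 164 TPM, then 339, 293 and 286 TPM, and 160, 175 and 177 TPM. Cox6a1 remained the more abundant form, but Cox6a2 took 11.3% ± 0.81 (SD, n = 3) of the pair after stimulation, 1.27% ± 0.476 (SD, n = 3) in medium and 1.38% ± 0.0395 (SD, n = 3) with TRAIL (two-sided exact permutation p = 0.1 for stimulated against either group). Cox6a2 overlaps the integrin gene Itgad on the opposite strand, and the strand setting of the authors' counting is not given in the sources used here. Itgad moved the other way, from 55.4 to 71.1 TPM in medium to 0.0714 to 0.179 TPM after stimulation and 59.4 to 65.7 TPM with TRAIL.

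Cox7a2l, a relative of subunit 7a that binds complex III and takes part in the joining of complexes III and IV into supercomplexes, was the only member that fell with stimulation and the only one that rose with TRAIL at an adjusted p of 0.05. The gene (ENSMUSG00000024248, GRCm38 chr17:83501918-83517330, minus strand) was measured at 405, 354 and 454 TPM in medium, 209, 167 and 173 TPM after stimulation and 511, 526 and 582 TPM with TRAIL. All 3 groups were free of overlap, with stimulated libraries lowest. The log2 fold changes were -1.14 (SE 0.12, limma adjusted p = 1.5e-05) with stimulation and 1.56 (SE 0.12, limma adjusted p = 1.5e-06) with TRAIL, and both passed in all 20 alternatives, although the fall with stimulation was under 2-fold after median-of-ratios scaling.
Cox7a2, the subunit found in the enzyme itself, went the other way, with 67.2, 39.1 and 70 TPM, then 157, 108 and 97.9 TPM, and 58.9, 58.7 and 63.1 TPM. Cox7a2 rose and fell (log2 fold changes 1.04 and -0.96, limma adjusted p = 0.00215 and 0.00348). Within the family of Cox7a1, Cox7a2 and Cox7a2l, the share of Cox7a2l was 87.4% ± 2.19 in medium, 60.5% ± 3.48 after stimulation and 89.9% ± 0.293 with TRAIL (SD, n = 3). The share of Cox7a2 was 12.5% ± 2.27, 39.4% ± 3.4 and 10% ± 0.281 (SD, n = 3).

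**Figure D3:**
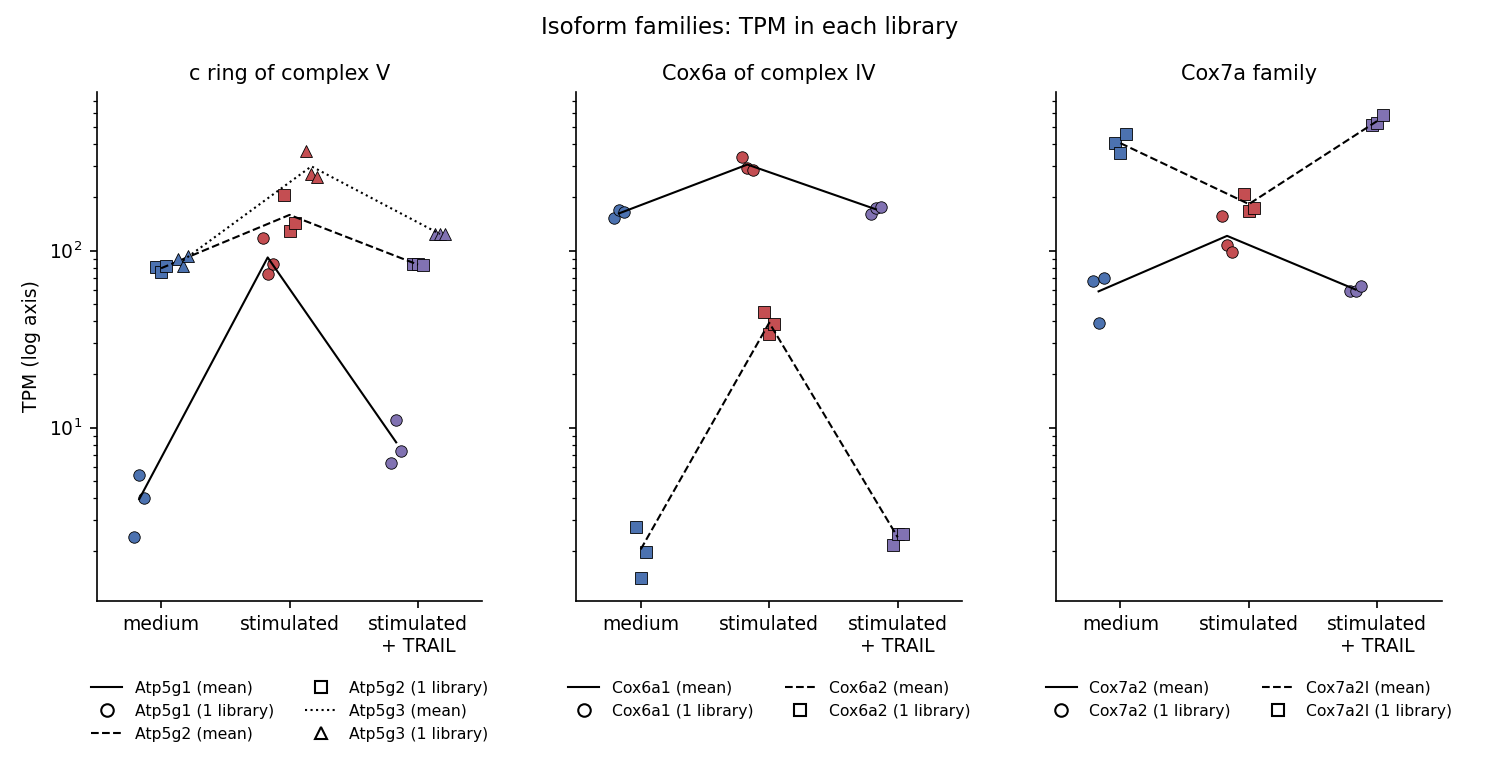
TPM on a log axis in each of the 9 libraries (points, coloured by group) and the group means (lines) for the c ring genes of complex V, the Cox6a isoforms and the Cox7a family. Atp5g1 and Cox6a2 are below 12 TPM in all medium and TRAIL-treated libraries and between 33.9 and 117 TPM in stimulated ones, and Cox7a2l is lowest in the stimulated libraries.

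Complex V makes ATP. Of 17 tested, 12 rose with stimulation, 13 fell with TRAIL and none passed in the opposite direction (medians 0.97 and -0.87). With stimulation 70.6% rose, where 28.8% of all genes rose and 40% fell. With TRAIL 76.5% fell, where 33.5% of all genes passed in each direction. Atp5b, the β subunit that holds the catalytic sites of the F1 head, was the most abundant member in every group, with 608, 648 and 606 TPM in medium, 1265, 1301 and 1302 TPM after stimulation and 608, 609 and 550 TPM with TRAIL. The log2 fold changes were 1.05 (SE 0.08, limma adjusted p = 1.7e-06) and -1.13 (SE 0.08, limma adjusted p = 1.1e-06). Atp5a1, the α subunit of the head, stood at 418 ± 1.32, 725 ± 49.8 and 408 ± 17.6 TPM (SD, n = 3), and its stimulated libraries did not overlap with the others. The central γ subunit gene, Atp5c1, did not pass in either comparison, with log2 fold changes of 0.26 (95% confidence interval -0.07 to 0.59) and -0.35 (95% confidence interval -0.67 to -0.02, limma adjusted p = 0.144 and 0.0597). The second passed without medium replicate 2 (-0.35, limma adjusted p = 0.0135) and when only the 6 libraries compared were fitted (-0.35, limma adjusted p = 0.0242).

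The c ring, whose rotation drives ATP synthesis, is built from 1 protein that the 3 genes Atp5g1, Atp5g2 and Atp5g3 encode with different import sequences. All 3 genes rose with stimulation and fell with TRAIL, but by very different amounts. Atp5g1 (ENSMUSG00000006057, GRCm38 chr11:96068852-96075670, minus strand) was measured at 2.41, 5.39 and 4.01 TPM in medium, 117, 73.3 and 83.6 TPM after stimulation and 6.32, 11 and 7.41 TPM with TRAIL. This was the largest rise of any member, 23.2-fold on the means, with a log2 fold change of 4.24 (SE 0.26, limma adjusted p = 2.6e-07), and the fall with TRAIL was -3.32 (SE 0.26, limma adjusted p = 1.7e-06).
Atp5g2 was at 80.5, 75.6 and 82 TPM, then 206, 129 and 143 TPM, and 83.5, 83.4 and 82.8 TPM. Atp5g3 was at 89.2, 81.6 and 92.6 TPM, then 367, 269 and 261 TPM, and 124, 124 and 124 TPM. Stimulated libraries were the highest for all 3 genes, and the 95% confidence interval of the rise of Atp5g1 (3.65 to 4.83) did not reach those of Atp5g3 (1.46 to 2.03) or Atp5g2 (0.63 to 1.30).

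Atp5g1 supplied 1.4, 3.32 and 2.25% of the summed level of the 3 genes in the medium libraries, 17, 15.6 and 17.2% in stimulated libraries and 2.95, 5.06 and 3.46% with TRAIL. The share of Atp5g2 was 46.4% ± 0.444 in medium, 28.9% ± 1.33 after stimulation and 38.6% ± 0.386 with TRAIL, and Atp5g3 was the largest in every group, with 51.3% ± 0.95, 54.6% ± 2.18 and 57.6% ± 0.745 (SD, n = 3). The share of Atp5g1 in stimulated libraries did not overlap with the others (two-sided exact permutation p = 0.1 for each, the smallest that 3 libraries against 3 allow), while its shares in medium and with TRAIL overlapped (exact p = 0.2). The share of Atp5g2 overlapped in no pair of groups (exact p = 0.1 for each), and that of Atp5g3 overlapped between stimulated and TRAIL-treated libraries (exact p = 0.2). The summed level rose from 171 ± 8.02 to 550 ± 122 TPM and was 216 ± 2.29 TPM with TRAIL (SD, n = 3). The promoter windows of Atp5g1 and Atp5g3 shown above hold an E box, and so do those of Atp5l, Atp5pb, Ndufa7 and Ndufv1, whose log2 fold changes with stimulation ran from 0.38 to 0.68.

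In the stalk that holds the head, Atp5j, Atp5o and Atp5pb rose, and all 4 members including Atp5h fell with TRAIL (medians 0.66 and -0.79). The stalk shares were 75% and 100%, beside 28.8% of all genes that rose with stimulation and 33.5% that fell with TRAIL. Of the 3 small membrane subunits, only Atp5k rose and fell (log2 fold changes 1.22 and -1.12), a share of 33.3% that is near those of all genes. Atp5j2 and Atp5l did not pass in either comparison. The same held for Atp5mpl, while Atp5md, a small subunit at the interface of the dimer, rose (1.22, limma adjusted p = 0.00405) and fell (-0.88, limma adjusted p = 0.0227).

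Summed over each complex, levels after stimulation were 1.64 times the medium level for complex I, 1.33 for complex II, 1.69 for complex III, 1.51 for complex IV and 1.81 for complex V. Complex IV reached 1.84 times the medium level when Cox7a2l was left out. With TRAIL the sums were 0.551, 0.659, 0.596, 0.769 and 0.55 of the stimulated level in the same order, and 0.604 for complex IV without Cox7a2l. The stimulated libraries lay above the other groups for each complex (two-sided exact permutation p = 0.1 in each of these 10 comparisons with n = 3, the smallest possible, so that an adjustment over them leaves none past 0.05).

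**Figure D4:**
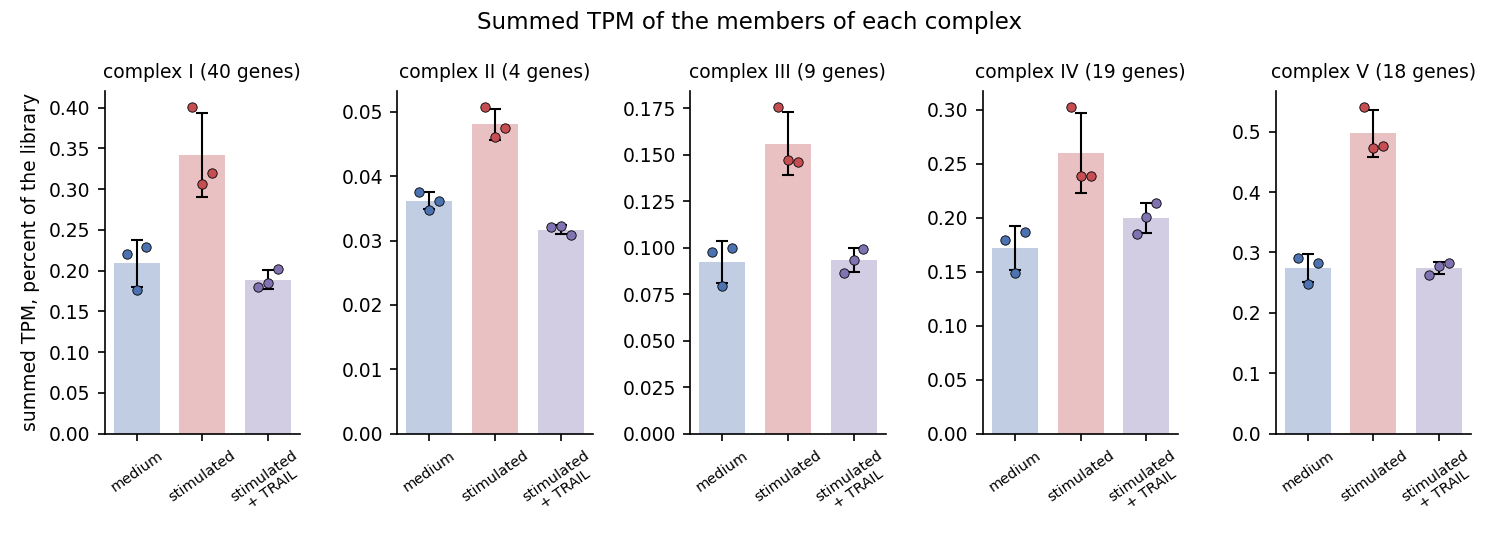
Summed TPM of the members of each complex as a percent of the library total, for each library (points) with the mean (bars, axes from 0) and SD (error lines, n = 3). The stimulated libraries lie above all others in every complex, with stimulated replicate 1 the highest of its group, and complex II is the only one in which the TRAIL-treated libraries lie below all medium libraries.

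The TRAIL-treated libraries were also set directly against medium. Of the 82 members, 5 passed as higher (6.1%, against 8.03% of all genes) and 6 as lower (7.32%, against 24.6% of all genes). None differed by at least 2-fold in either direction, where 2.49% of all genes were that much higher and 2.13% that much lower. The median log2 fold change was -0.05 over the members and -0.18 over all genes. For 78 members the 95% confidence interval lay within a 2-fold change in either direction, as it did for 12774 of all 15536 genes. For 33 members, and for 4432 of all genes, it lay between -0.5 and 0.5 on the log2 scale. The sign of the members' median depended on the scaling: median-of-ratios scaling, which moved the median of all genes by 0.17, gave 0.13 with 6 members higher and 1 lower. Without medium replicate 2, 3 members passed as higher and 15 as lower.

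**Figure D5:**
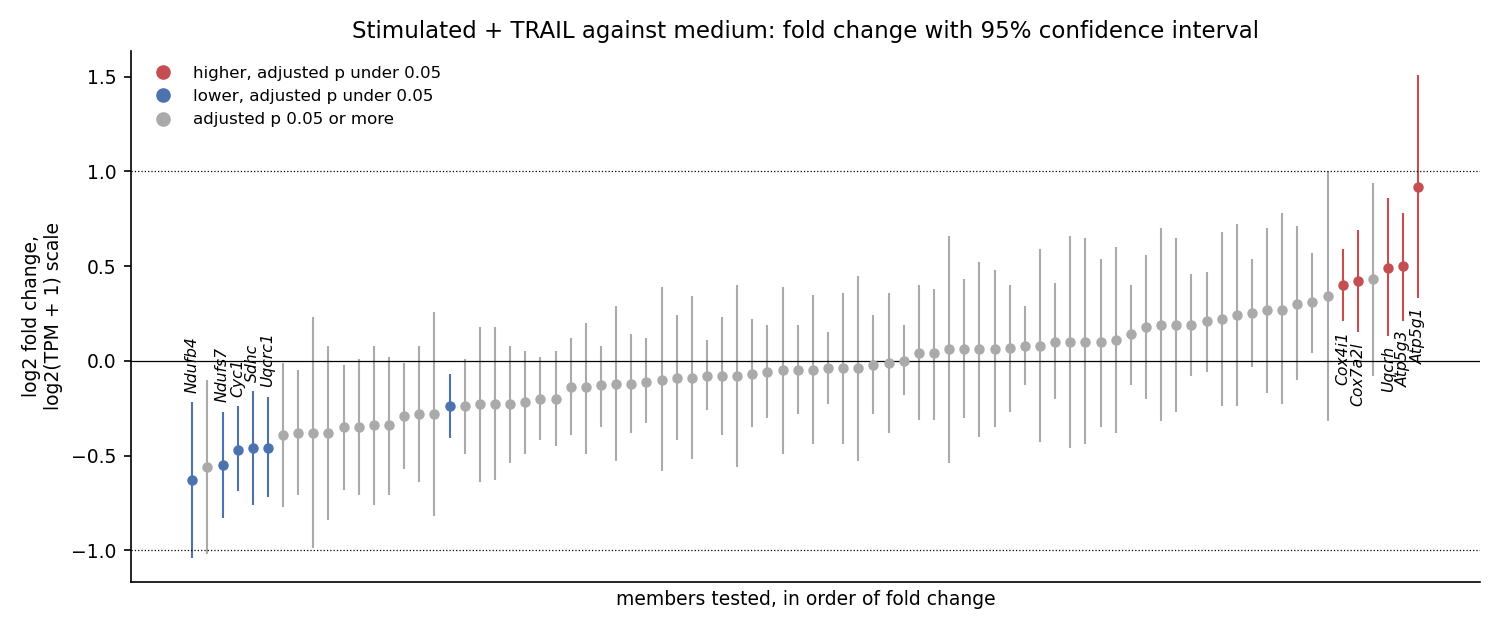
Log2 fold change of stimulated with TRAIL against medium, on the log2(TPM + 1) scale, with 95% confidence interval (bars) for the 82 tested members in order of value. Red and blue points, 5 and 6 in number, passed an adjusted p of 0.05 as higher or lower, and dotted lines mark a 2-fold change.

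Cyc1 was lower (log2 fold change -0.47, limma adjusted p = 0.00723), and Cox4i1 (0.40, limma adjusted p = 0.0059) and Atp5g3 (0.50, limma adjusted p = 0.0153) were higher with TRAIL than in medium, and these 3 calls held in all 20 alternatives. The other 8 were lost in at least 1 alternative. Among them, Atp5g1 was higher by 0.92 (limma adjusted p = 0.0243), which was lost without medium replicate 1 (0.68), medium replicate 3 (0.95), TRAIL replicate 2 (0.72) or TRAIL replicate 3 (0.97). Cox7a2l was higher by 0.42 (limma adjusted p = 0.0249), which was lost without medium replicate 1 (0.43), medium replicate 2 (0.33), TRAIL replicate 2 (0.44) or TRAIL replicate 3 (0.37). Uqcrh (0.49) was the remaining member that passed as higher, and Ndufb4 (-0.63), Ndufs7 (-0.55), Sdhc (-0.46) and Uqcrc1 (-0.46) were among those that passed as lower.

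A total of 8 members were not tested. Cox7b2, Cox8b, Cox8c and the second entry of Atp5o were listed at 0.0001 TPM, the value of 58.7% of all entries of the table, in all 9 libraries. The tissue-restricted isoforms Cox4i2, Cox7a1 and Ndufa4l2 and the pseudogene Ndufa11b stayed at or below 1.04 TPM in every library. Cox4i2 and Ndufa4l2 took at most 0.0849% and 0.243% of the summed level of their pairs with Cox4i1 and Ndufa4 in any library. Cox6b2, known from testis, was tested and had log2 fold changes of 0.08 and 0.03, at a mean of 2.52 to 2.74 TPM across groups, while its counterpart Cox6b1 rose from 96 to 214 TPM on average and fell to 95.3 TPM (limma adjusted p = 1.5e-04 in each comparison).

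Of 52 assembly factors tested, 26 rose and 7 fell with stimulation (median 0.35), and 33 fell and 4 rose with TRAIL (median -0.47). These shares were 50% higher and 13.5% lower with stimulation, against 28.8% and 40% of all genes, and 63.5% lower and 7.69% higher with TRAIL, against 33.5% in each direction. Sco1 and Cox17, which deliver copper to complex IV, had log2 fold changes of 1.79 and 1.71 with stimulation and -2.16 and -2.05 with TRAIL, and Uqcc2, an assembly factor of complex III, 1.89 and -1.87 (limma adjusted p at most 6.6e-05). Tmem126b of complex I (-0.90, limma adjusted p = 1.6e-04) and Cox20 of complex IV (-0.92, limma adjusted p = 4.1e-04) fell with stimulation, and Cox20 rose with TRAIL (1.19, limma adjusted p = 6.6e-05). Outside the name rule, Cycs, which encodes cytochrome c, and Ndufab1, the acyl carrier subunit of complex I, rose (1.31 and 1.2) and fell (-1.26 and -1.49), while Atpif1, the inhibitor of complex V, and Dnajc15 passed neither comparison.

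Of 19 genes of the tricarboxylic acid cycle and pyruvate import, 9 rose and 1 fell with stimulation and 11 fell with TRAIL (medians 0.36 and -0.56), led by Suclg1 (1.35 and -1.82). The shares were 47.4% higher and 5.26% lower with stimulation, where 28.8% and 40% of all genes were, and 57.9% lower with TRAIL, where 33.5% of all genes were. Among 15 tested regulators of mitochondrial gene expression, 4 rose and 5 fell with stimulation, and 2 rose and 7 fell with TRAIL. With stimulation these shares, 26.7% higher and 33.3% lower, were near those of all genes (28.8% and 40%), and with TRAIL they were 13.3% higher and 46.7% lower, against 33.5% each way. Among these regulators, Myc rose most (log2 fold change 2.20, limma adjusted p = 1.0e-07) and fell with TRAIL (-1.73, limma adjusted p = 6.3e-07), followed by Lrpprc (0.81 and -1.15), Pprc1 (0.81 and -1.35) and Gabpb1 (0.73 and -0.48). Nrf1 fell with stimulation (-0.37, limma adjusted p = 0.0357), Esrra (-0.35), Tfb2m (-0.36), Mterf3 (-0.38) and Gabpb2 (-0.67) fell as well, and Tfam, Gabpa, Polrmt, Yy1, Tfb1m and Ppargc1b did not pass. With TRAIL, Tfb2m (0.78) and Ppargc1b (0.93) rose, and Gabpa (-0.38), Polrmt (-0.51) and Tfb1m (-0.67) fell. Ppargc1a was under 1 TPM on average in each group and was not tested.

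The 13 subunits encoded in mitochondrial DNA together took 9.54% ± 0.802 of all transcripts in medium, 5.28% ± 0.134 after stimulation and 9.4% ± 0.934 with TRAIL (SD, n = 3). With stimulation 10 fell and 1, mt-Nd6, rose (median -0.61), and with TRAIL 10 rose and mt-Nd6 fell (median 0.73), where 40% of all genes fell with stimulation and 33.5% rose with TRAIL. Because TPM values share 1 total, part of any shift of such abundant transcripts appears in all other genes. When the mitochondrially encoded, immunoglobulin and globin genes were removed and the rest rescaled, 58 nuclear-encoded members rose and 2 fell with stimulation (median 0.68), and 63 fell and 1 rose with TRAIL (median -0.79).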

How the data were processed

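RNA from 9 libraries of CD4+ T cells was made into libraries with the SureSelect XT HS2 mRNA kit and sequenced as paired ends, per the methods of the study. The submitters' processing notes list Trimmomatic 0.36, HISAT2 2.1.0, SAMtools 1.2, StringTie 2.1.2 and DESeq2. They name build GRCh38 and the paper GRCm38. The loci in the table match GENCODE M21 of GRCm38 for 99.3% of 55141 matched genes. The authors deposited TPM values per gene; the program that gave them is not given in the sources used here. Reads were not available as counts, so depth is unknown and no count test was run. The value 0.0001 TPM fills 58.7% of the table, and 305 values lie below it.

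From these values, genes reaching 1 TPM in 3 or more libraries were tested on log2(TPM + 1) with limma 3.58.1 in R 4.3.3, in 1 fit of all groups with a mean-dependent prior, and p-values were adjusted by Benjamini-Hochberg over 15536 genes at a threshold of 0.05. Sums and shares were compared by two-sided exact permutation tests. In 5 simulated data sets of 15536 genes all groups had the medium means, and only 200 genes were changed in the TRAIL-treated libraries. Of those changed by 1 on the log2 scale, 70 to 82% were recovered against medium, with at most 11 false calls. In the data 1247 genes passed as higher and 3816 as lower in this comparison. The simulation differs from the data in this, so recovery in the data was not measured. Named members are the 5 largest rises and 5 largest falls of each comparison among those past the threshold that averaged 10 TPM or more in either group, the catalytic and core subunits, the isoform families, members that passed against the majority of their complex, and the most and least abundant member of each complex. Of other lists, up to 5 genes with the largest changes are named, and all regulators and carriers. Ndufs6, Ndufa7 and the stalk and small membrane subunits of complex V, where they fall outside this rule, were named after their values were seen. The members and gene lists were chosen with earlier results of these data known. Alternatives covered the pseudocount, the filter, the scaling, the prior, the samples fitted, a replicate block, leaving out each library, and a length and GC correction added after seeing the data. Results for 1 member and 1 marker gene are not reported here by name.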

Additional observations from a re-analysis of the deposited data

Results flagged for a closer look

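Several genes whose names hold -ps, outside the rule for members, were listed at measurable levels. The mean level in stimulated libraries was 123 TPM for Ndufa12-ps, 35.1 TPM for Ndufb1-ps, 30.3 TPM for Cox5b-ps and 21.6 TPM for Atp5pb-ps. The annotation calls Ndufa12-ps and Atp5pb-ps processed pseudogenes, Cox5b-ps protein coding and Ndufb1-ps a long noncoding RNA from a bidirectional promoter. How reads were divided between them and the genes whose names they share was not tested.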

How the results depend on the processing

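Counts of members higher with stimulation and lower with TRAIL kept within 1.5 times their value in all 20 alternatives. With median-of-ratios scaling, 0 members fell by 2-fold with stimulation, and for TRAIL against medium 1 passed as lower, 1 was 2-fold higher and the median was 0.13. With quantile normalization 2 members fell with stimulation, the median for TRAIL against stimulated was -0.70, and for TRAIL against medium 3 were higher, 3 lower and 1 at least 2-fold higher, with a median of 0.10. Rescaling without mitochondrially encoded, immunoglobulin and globin genes gave 2 members lower with stimulation and a median of -0.79 for TRAIL against stimulated. For TRAIL against medium, a pseudocount of 0.1 gave 1 member 2-fold higher, no filter gave 2 higher, and the length and GC correction gave 9 higher, 3 lower, 1 at least 2-fold higher and a median of 0.04. The cause of these shifts was not tested. Leaving out 1 library gave, for TRAIL against medium, 2 to 6 members higher, 3 to 15 lower, 0 to 1 at least 2-fold higher and medians of -0.14 to 0.02, and for TRAIL against stimulated medians of -0.96 to -0.76. The median of all genes moved by 0.15 (median-of-ratios) and 0.21 (quantile) with stimulation. Of the named members, 29 of 31 calls with stimulation held in every alternative (Ndufa4 and Ndufv2 did not), 34 of 36 for TRAIL against stimulated (Cox8a and Sdha did not) and 3 of 11 for TRAIL against medium. In the same order, 5, 3 and 8 named members that had not passed did so in at least 1 alternative.

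Whether replicate numbers pair the libraries could not be decided. Deviations from the group mean correlated between -0.31 and 0.29 for libraries with the same number and between -0.38 and 0.29 for those with different numbers. Deviations from a mean of 3 libraries depend on each other, so these values cannot exclude pairing. With the replicate block 60 members were higher and 1 lower with stimulation, 1 higher and 66 lower for TRAIL against stimulated, and 4 higher and 5 lower for TRAIL against medium. Depth is unknown, and with 3 libraries a group small changes are not resolved.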
